A study of Rattus norvegicus with 16 samples.

Results

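The Hox genes of epididymal fat and liver were described in obese male rats, over all 28 gene symbols of the deposited tables that match the Hox naming pattern (Hox, a cluster letter from a to d, and a number), out of 22517 symbols in all. The choice used names only, no measured value. The symbols fall into 7 of the Hoxa cluster (among them Hoxa2, Hoxa6, Hoxa9, Hoxa9l, Hoxa10 and Hoxa13), 9 of Hoxb (Hoxb1, Hoxb3, Hoxb4, Hoxb5, Hoxb6, Hoxb7, Hoxb8, Hoxb9, Hoxb13), 6 of Hoxc (Hoxc4, Hoxc5, Hoxc9, Hoxc10, Hoxc12, Hoxc13) and 6 of Hoxd (Hoxd1, Hoxd3, Hoxd4, Hoxd10, Hoxd12, Hoxd13). RefSeq's GRCr8 gene table holds 39 protein-coding Hox genes, of which 27 are listed under their current symbol and 12 are not analysed here under it.

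RNA was sequenced from epididymal fat and liver of 8 male ZDF/GmiCrl-fa/fa rats, which carry 2 defective copies of the leptin receptor gene and become obese and diabetic. All were bought at 7 weeks of age and kept on Purina 5008 feed. From 9 to 11 weeks of age they received that feed with R-α-lipoic acid (LA) or were pair-fed the same feed without it (PF). The 16 libraries form 4 groups of 4, namely LA fat, PF fat, LA liver and PF liver. The labels call the libraries of a group biological replicates, without saying which fat and liver library share a rat. Expression is given as FPKM, fragments per kilobase of transcript, scaled to the mapped fragments of each library, so levels can be compared between genes.

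Hox genes encode homeodomain transcription factors, and in mammals they lie in 4 clusters on different chromosomes. Along each cluster, genes with low paralogue numbers are active towards the head of the embryo and genes with high numbers towards the tail, and many adult mesenchymal cells keep part of the pattern of the place they came from. In fat, depots from different parts of the body are known to differ in which Hox genes they express, while the liver arises from foregut endoderm.

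Epididymal fat held a broad middle stretch of the Hox clusters, and liver held almost none. Over the 8 fat libraries, 10 of the 28 members had a mean of 1 FPKM or more, and in liver 0 did. The 10 were Hoxa2, Hoxa9, Hoxb3, Hoxb4, Hoxb6, Hoxb7, Hoxc4, Hoxc5, Hoxc9 and Hoxd4. A further 5 members had a fat mean between 0.1 and 1 FPKM (among them Hoxa6, Hoxb5, Hoxb9 and Hoxd3), and 6 had a mean above 0 but under 0.1 FPKM (Hoxa9l, Hoxb8, Hoxc10, Hoxd1, Hoxd10, Hoxd13). The remaining 7, Hoxa10, Hoxa13, Hoxb1, Hoxb13, Hoxc12, Hoxc13 and Hoxd12, were listed at 0 in all 16 libraries. Of the members, 21 had a value above 0 in at least 1 fat library and 9 in at least 1 liver library, and 0 were seen in liver alone. Just inside the limit of 1 FPKM stood Hoxd4 with a fat mean of 1.10, and just outside it stood Hoxa6 with 0.991.

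**Figure D1:**
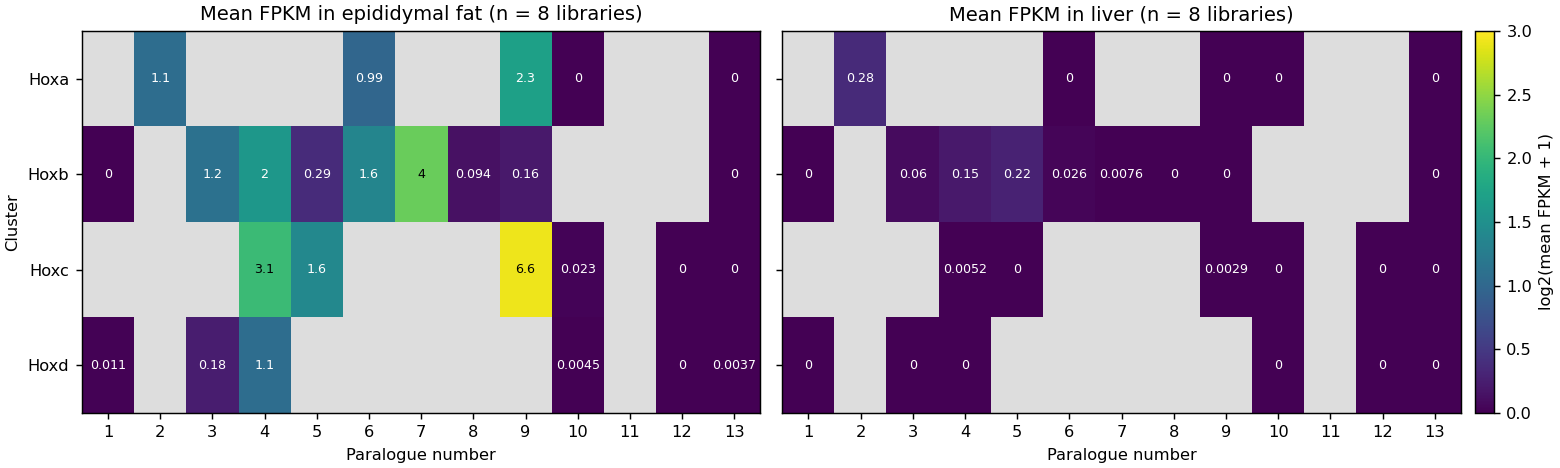
Mean FPKM of each Hox gene over the 8 epididymal fat libraries (left) and the 8 liver libraries (right), by cluster (rows) and paralogue number (columns). Colour is log2(mean FPKM + 1), grey cells are paralogues not shown here, and Hoxa9l is not drawn. The fat cells at 1 FPKM or more lie between paralogues 2 and 9, with Hoxc9 the brightest at 6.60 FPKM, and the highest mean in liver is 0.285 FPKM for Hoxa2.

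By paralogue number, the signal of the listed symbols in fat was centred on groups 4 to 9 of the 13. The 12 RefSeq Hox genes not listed under their current symbol are not counted. Of the 13 symbols with paralogue numbers 4 to 9, 8 had a fat mean of 1 FPKM or more and 0 were at 0 throughout fat. Among the 6 symbols of groups 1 to 3, 2 reached that mean (Hoxa2 and Hoxb3). Today's Hoxa3, listed under the older symbol RGD1561431 and so not among them, had a fat mean of 1.33 FPKM. None of the 9 symbols of groups 10 to 13 did: 6 were listed at 0 in all 8 fat libraries, and the highest value of any of them was 0.104 FPKM, for Hoxc10 in LA fat replicate 1. A 0 in these tables can be a failed estimate, since the abundant plasma protein genes Alb and Tf are listed at 0 in all liver libraries, and it therefore says only that no value was given.

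To show what lies at the starts of members at the 2 ends of the range, the 250 bases before the RefSeq start (assembly GRCr8, 5′ to 3′ on the gene's strand) are given for the 3 members with a fat mean of 1 FPKM or more that have an entry under an unambiguous symbol, and for the paralogue-13 genes Hoxa13 and Hoxd13. Capitals mark each CG dinucleotide, the site of vertebrate DNA methylation. The deposited tables name no genome build, so these positions belong to RefSeq and not to the measurements.
Hoxa2 (chr4:82595693-82595942, minus strand): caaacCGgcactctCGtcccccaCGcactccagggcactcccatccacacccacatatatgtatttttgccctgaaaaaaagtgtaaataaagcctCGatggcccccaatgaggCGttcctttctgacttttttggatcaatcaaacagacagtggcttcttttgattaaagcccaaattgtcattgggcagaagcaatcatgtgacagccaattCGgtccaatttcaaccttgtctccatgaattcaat
Hoxc4 (chr7:136048809-136049058, plus strand): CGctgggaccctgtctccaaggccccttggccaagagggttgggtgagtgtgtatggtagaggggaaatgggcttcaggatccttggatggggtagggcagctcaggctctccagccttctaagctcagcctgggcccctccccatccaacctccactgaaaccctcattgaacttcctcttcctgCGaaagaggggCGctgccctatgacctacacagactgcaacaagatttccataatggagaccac
Hoxd4 (chr3:80021636-80021885, plus strand): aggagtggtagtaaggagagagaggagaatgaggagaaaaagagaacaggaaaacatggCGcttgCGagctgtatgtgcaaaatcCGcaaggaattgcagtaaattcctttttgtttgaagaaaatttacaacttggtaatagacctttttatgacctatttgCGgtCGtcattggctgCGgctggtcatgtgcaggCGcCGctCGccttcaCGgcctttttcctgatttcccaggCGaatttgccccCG
Hoxa13 (chr4:82691702-82691951, minus strand): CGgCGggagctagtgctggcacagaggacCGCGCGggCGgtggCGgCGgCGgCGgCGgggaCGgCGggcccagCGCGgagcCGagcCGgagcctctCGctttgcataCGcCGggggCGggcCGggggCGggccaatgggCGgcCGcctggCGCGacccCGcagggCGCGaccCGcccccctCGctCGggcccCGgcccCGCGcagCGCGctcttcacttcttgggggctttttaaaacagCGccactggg
Hoxd13 (chr3:79977827-79978076, plus strand): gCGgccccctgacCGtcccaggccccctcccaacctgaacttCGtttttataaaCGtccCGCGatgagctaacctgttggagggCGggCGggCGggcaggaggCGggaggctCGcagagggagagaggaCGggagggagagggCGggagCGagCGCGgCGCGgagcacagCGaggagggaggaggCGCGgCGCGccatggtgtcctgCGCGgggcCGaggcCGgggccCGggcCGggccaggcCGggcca
The CG count was 6 for Hoxa2, 3 for Hoxc4 and 12 for Hoxd4, against 39 for Hoxa13 and 30 for Hoxd13. The median over all 33469 RefSeq promoters of the same length was 5. Hoxa6, with a fat mean just under 1 FPKM, held 28, so a count in the upper range was not limited to members at or near 0. The other members with an entry held 25 (Hoxd1), 21 (Hoxd10), 14 (Hoxd12), 11 (Hoxd3) and 6 (Hoxb1). The letters TGATNNAT, the composite site bound by Hox proteins together with Pbx proteins, were searched on both strands. They occurred once each before Hoxa2 and Hoxb1, in 2 of the 11 members with an entry, and in 7.96% of all promoters. The letters TATAAA occurred before 1 of the 11, Hoxd13, where the matches on the 2 strands overlap, and in 12.93% of all promoters. These matches describe the letters of the windows only.

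Hoxc9, a trunk-level member of the Hoxc cluster, was the most abundant Hox gene in every fat library. Its values were 6.07, 5.63, 6.91 and 6.49 FPKM in LA fat, and 6.69, 6.65, 7.50 and 6.85 FPKM in PF fat. In liver it was listed at 0 in all 4 LA libraries and in 3 PF libraries, with 0.0236 FPKM in PF liver replicate 1. Every fat library stood above every liver library, and the 2 feeds overlapped. Its mean over fat, 6.60 ± 0.563 FPKM (SD, n = 8), was higher than that of 69.4% of all listed symbols, and Hoxc9 alone made up 21.1% to 27.5% of the summed Hox FPKM of a fat library.

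Hoxb7 and Hoxc4 followed in that order. Hoxb7, a paralogue of the trunk, measured 3.26, 4.11, 4.17 and 3.30 FPKM in LA fat, and 3.45, 2.85, 4.72 and 6.08 FPKM in PF fat. In liver its only value above 0 was 0.0611 FPKM, in PF liver replicate 3. Hoxc4, from the head-ward end of its cluster, measured 3.03, 2.73, 2.98 and 3.24 FPKM in LA fat, and 2.79, 2.75, 3.74 and 3.65 FPKM in PF fat. For both genes all fat libraries stood above all liver libraries, where Hoxc4 reached 0.0413 FPKM in PF liver replicate 2 and was otherwise listed at 0. Hoxc9 exceeded Hoxb7, and Hoxb7 exceeded Hoxc4, in 8 of 8 fat libraries, although the ranges of neighbours overlapped across libraries.

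The symbol Hoxa9 measured 2.45, 2.72, 2.17 and 2.88 FPKM in LA fat, and 1.77, 2.38, 2.71 and 1.10 FPKM in PF fat. It was listed at 0 in all 8 liver libraries. PF fat replicate 4, which had the lowest Hoxa9 value, also had the highest Hoxb7 value. Which gene this symbol stands for is uncertain, since the tables list both Hoxa9 and Hoxa9l, and RefSeq gives Hoxa9l as an older symbol of today's Hoxa9 and Hoxa9 as an older symbol of today's Hoxa7. Hoxa9l itself measured 0.173 FPKM in LA fat replicate 2 and was at 0 in the other 3 LA fat libraries, and it measured 0.186, 0.300, 0 and 0.0871 FPKM in PF fat, with 0 throughout liver. Hoxa10, listed at 0 in all libraries, carries the same doubt, as it is an older symbol of today's Hoxa11.

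Hoxb4, a gene of the neck region that is also known from blood stem cells, was present in both tissues at unequal levels. It measured 2.33, 1.75, 2.36 and 1.66 FPKM in LA fat, and 1.85, 1.66, 2.43 and 2.03 FPKM in PF fat. In liver it measured 0.147, 0.0882, 0.0794 and 0.169 FPKM under LA, and 0.110, 0.385, 0.0477 and 0.188 FPKM under PF. The value in PF liver replicate 2 was the highest of any Hox gene in any liver library. Its neighbour Hoxb3 measured 1.30, 0.958, 1.39 and 0.861 FPKM in LA fat, and 0.647, 1.41, 1.63 and 1.12 FPKM in PF fat, against at most 0.0820 FPKM in LA liver and 0.104 FPKM in PF liver. All fat libraries of both genes stood above all liver libraries.

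Hoxb6, next to Hoxb7 in the cluster, varied most among these 10 genes in fat, with a coefficient of variation of 36.8%, against 8.53% for Hoxc9. It measured 0.976, 2.28, 1.77 and 2.11 FPKM in LA fat, and 0.989, 0.949, 1.35 and 2.20 FPKM in PF fat. Its liver values reached 0.0390 FPKM under LA and 0.0873 FPKM under PF, and 4 of the 8 liver libraries were at 0. The low and the high fat libraries came from both feeds.

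Hoxc5 measured 1.29, 1.40, 2.11 and 1.28 FPKM in LA fat, and 1.76, 1.47, 1.84 and 1.95 FPKM in PF fat, and was listed at 0 in all liver libraries. Hoxd4, the only member of its cluster at this level, measured 1.01, 0.811, 0.952 and 1.29 FPKM in LA fat, and 1.02, 1.30, 1.11 and 1.30 FPKM in PF fat, again with 0 throughout liver. In both genes the feeds overlapped in fat. Hoxa2, a hindbrain-level gene, measured 1.09, 0.845, 1.27 and 1.27 FPKM in LA fat, and 1.21, 1.12, 1.14 and 0.866 FPKM in PF fat. Its liver mean, 0.285 FPKM, was the highest of the Hox genes, with 0.215, 0.338, 0.174 and 0.371 FPKM under LA, and 0.301, 0.361, 0.209 and 0.308 FPKM under PF. Each of these liver values lay below each fat value.

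**Figure D2:**
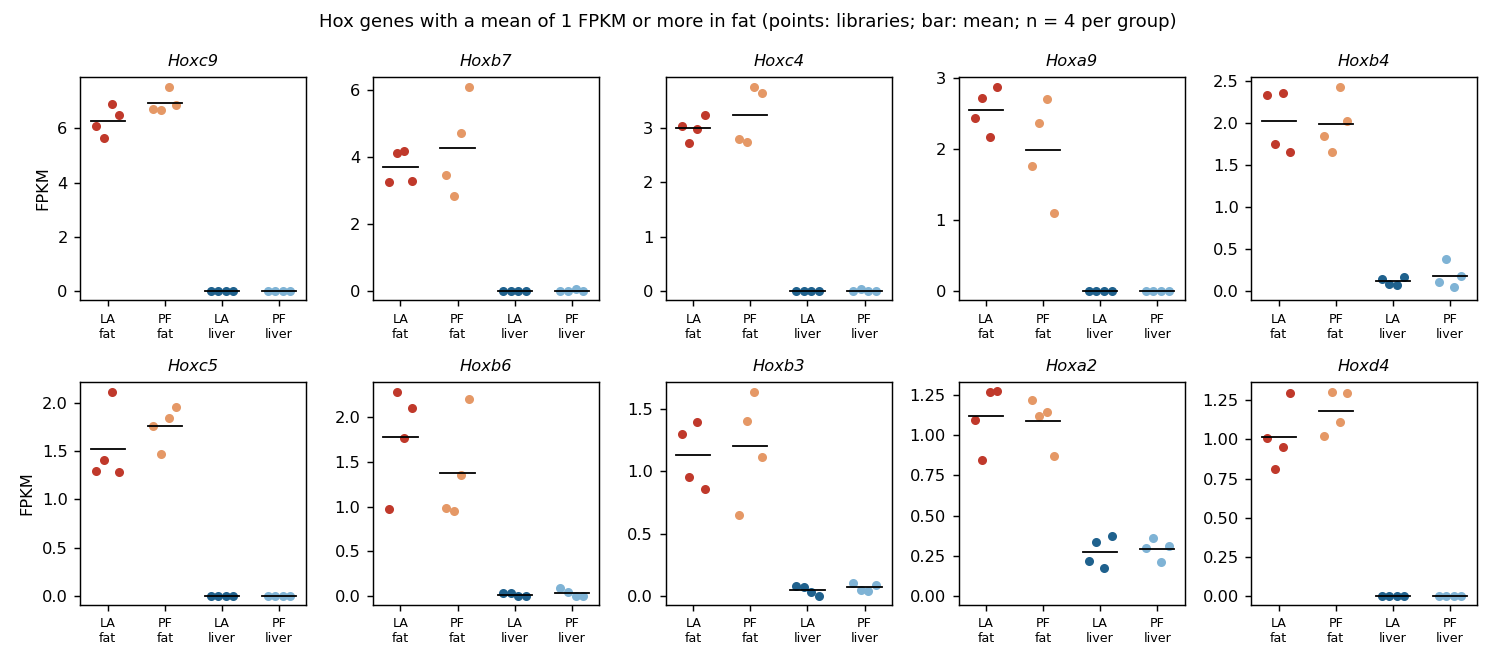
FPKM of the 10 Hox genes with a mean of 1 FPKM or more in fat, in LA fat, PF fat, LA liver and PF liver; each point is a library, each bar the mean of the 4 libraries of a group, and each panel has its own axis. In all 10 panels the fat points lie above the liver points and the points of the 2 feeds overlap within a tissue; Hoxa2 and Hoxb4 are the panels where all liver points lie above 0.

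The members between 0.1 and 1 FPKM behaved less alike. Hoxa6 measured 0.447, 2.20, 0.869 and 1.37 FPKM in LA fat, and 0.620, 0.600, 1.02 and 0.813 FPKM in PF fat, and was at 0 throughout liver. Hoxb5, in contrast, had similar values in the 2 tissues: 0.0561, 0.335, 0.381 and 0.245 FPKM in LA fat, 0.124, 0.401, 0.408 and 0.408 FPKM in PF fat, 0.0579, 0.156, 0.327 and 0.300 FPKM in LA liver, and 0.324, 0.324, 0.225 and 0.0552 FPKM in PF liver. Hoxb9 was found in 3 libraries of LA fat, at 0.158, 0.0674 and 0.0767 FPKM, and in 3 of PF fat, at 0.366, 0.373 and 0.213 FPKM, and in 0 liver libraries. Hoxd3 is described with the feed. Hoxa2, Hoxb4 and Hoxb5 are the members above 0 in all 8 liver libraries, each with a liver mean of 0.1 FPKM or more.

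How few fragments stand behind these values can be read from their spacing. Each value was first divided by the relative value of a fragment in its library, given below. For 9 of the 21 members with any value, all values of the gene were then whole multiples of a single step, within 0.01. Of these, Hoxd10 and Hoxd13 had only 1 value above 0, so their fit was fixed in advance. Hoxc10 and Hoxd1 had only 2, so they say little. For Hoxa2 this gave 19 to 28 steps in LA fat and 16 to 24 in PF fat, against 4 to 8 in LA liver and 4 to 6 in PF liver. For Hoxb5 it gave 1 to 7 steps in LA fat, 2 to 8 in PF fat, 1 to 7 in LA liver and 1 to 5 in PF liver. The liver values of both genes thus rest on single-digit numbers of steps. A step is the smallest unit that fits and could stand for more than 1 fragment. Total read numbers are unknown, so no counting interval is given. The relative value of a fragment, by the same spacing over low genes, was 0.739 to 0.961 in fat and 0.722 to 1 in liver, so the tissues covered much the same range.

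**Figure D3:**
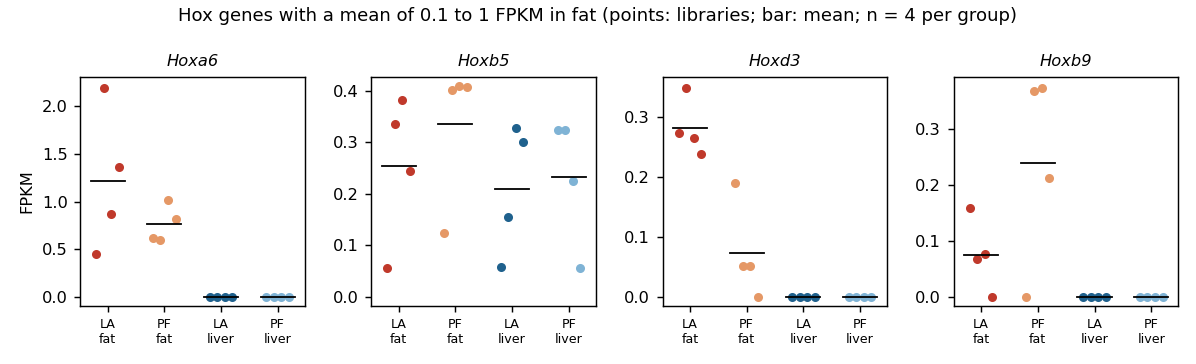
FPKM of Hoxa6, Hoxb5, Hoxd3 and Hoxb9, which have a mean of 0.1 to 1 FPKM in fat, drawn as in the plot of the more abundant genes (points are libraries, bars are means, n = 4 per group, own axis per panel). Hoxb5 points of fat and liver overlap, and Hoxd3 in LA fat (0.238 to 0.349 FPKM) lies above PF fat (0 to 0.190 FPKM).

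Added up by cluster, Hoxc gave the largest part of the Hox signal in each fat library, 36.6% to 43.4% in LA fat and 42.2% to 46.6% in PF fat. Hoxb gave 30.6% to 36.6% in LA fat and 30.4% to 41.5% in PF fat, Hoxa 15.8% to 23.2% in LA fat and 11.4% to 20.3% in PF fat, and Hoxd 4.35% to 5.88% in LA fat and 3.74% to 5.54% in PF fat. The listed members are only part of each cluster, so these shares are of the listed members. In total the members summed to 26.3 ± 1.51 FPKM in LA fat and 27.4 ± 3.26 FPKM in PF fat (SD, n = 4 each). In liver they summed to 0.542 to 0.977 FPKM under LA and 0.587 to 1.22 FPKM under PF, from Hoxa and Hoxb alone under LA.

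**Figure D4:**
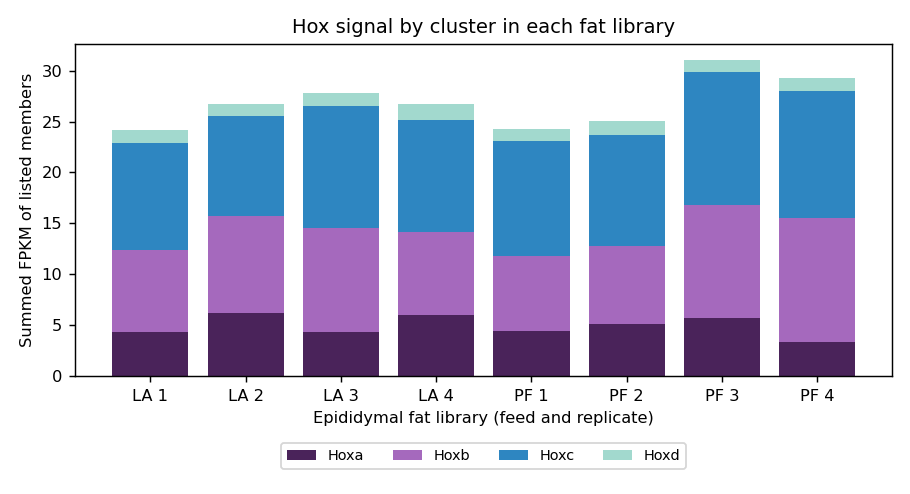
Summed FPKM of the listed Hox members in each of the 8 epididymal fat libraries, stacked by cluster; LA libraries are on the left and PF libraries on the right. Totals run from 24.2 to 27.7 FPKM under LA and from 24.3 to 31.1 FPKM under PF, with Hoxc the largest layer in each bar; in PF fat replicate 4, Hoxb (12.1 FPKM) comes close to Hoxc (12.4 FPKM).

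The tissue comparison asked which members differ between fat and liver. Without a filter on low values, limma on log2(FPKM + 1), with Benjamini-Hochberg adjustment over 17385 genes, called 9 of the 21 members with any value higher in fat and 0 lower, at an adjusted p under 0.05 and a log2 difference over 1. The same rule called 24.6% of all genes higher in fat and 7.25% lower. Of the same 21, 11 had all fat libraries above all liver libraries, against 45.3% of all genes, and 0 had them below, against 10.8%. With the filter of 1 FPKM in at least 4 libraries, 10 members were tested among 12079 genes and 9 were called higher and 0 lower, against 35.4% and 10.4% of genes. Those 10 passed the filter through their fat libraries alone, so nothing is read from that count.

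In the fit without the filter, Hoxc9 had the largest log2(FPKM + 1) difference between fat and liver among the members, 2.92 ± 0.05 (SE). Hoxb7 differed by 2.28 ± 0.10 and Hoxc4 by 2.03 ± 0.06. The other called differences were 1.69 for Hoxa9, 1.39 for Hoxc5, 1.38 for Hoxb4, 1.30 for Hoxb6, 1.06 for Hoxd4 and 1.02 for Hoxb3. On this scale the differences of low genes are understated, and Hoxa2, with 0.71 ± 0.06 (limma adjusted p = 8.64e-09), stayed under the required size. Within a feed and without the filter, 10 of the 21 members were called higher under LA, Hoxa6 (1.09) being the addition, against 24.8% of all genes. Under PF 9 of the 21 were called higher, against 24.9%.

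The whole distribution lay towards fat, with a median difference of 0.325 over the 17385 genes of the fit without the filter. Over the 12079 genes of the filtered fit the median was 0.66, so values are best read against the shift of the genes they are compared with. With each library centred on its median gene, the differences became 2.23 for Hoxc9, 1.60 for Hoxb7, 1.34 for Hoxc4 and 1.00 for Hoxa9. Those of the other 6 filtered members were then under the required size, as that of Hoxa2 already was without centring. These 10 too entered through their fat libraries, so the number is a description only. The calls over all genes split into 2235 higher and 2106 lower in fat, against 4279 higher and 1257 lower without centring. Hoxb3 lay close to the required size: it fell under it without LA fat replicate 1 (1.00), LA fat replicate 3 (0.99), PF fat replicate 2 (0.99) or PF fat replicate 3 (0.97).

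Among the members under the filter, the fit without it gave Hoxa6 a difference of 0.95 (limma adjusted p = 2.15e-06) and Hoxd3 0.23 (adjusted p = 3.11e-06), both below the required size. The same fit gave Hoxb9 a difference of 0.20, Hoxb8 0.12 and Hoxa9l 0.12. For Hoxb5 it was 0.08 ± 0.07, with a limma adjusted p of 0.327. Hoxb5 was thus the one member with a fat mean over 0.1 FPKM for which fat and liver were not told apart by this test, at the few fragments noted above. Hoxc10, Hoxd1, Hoxd10 and Hoxd13 were each seen in 1 or 2 fat libraries only and also missed the threshold.

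**Figure D5:**
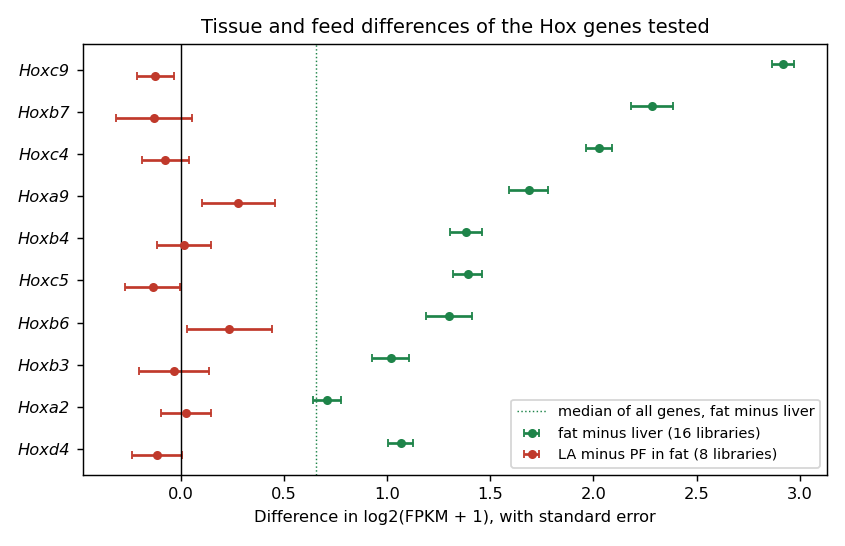
Differences in log2(FPKM + 1) of the 10 Hox genes that passed the filter, ordered from top to bottom by their fat mean. Green points are fat minus liver over 16 libraries and red points are LA minus PF over the 8 fat libraries, each with its standard error; the dotted line is the median fat minus liver difference of all genes (0.66). Green points run from 0.71 (Hoxa2) to 2.92 (Hoxc9), while red points lie between -0.14 and 0.28 around zero.

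In bulk tissue, fewer cells of a type and less RNA per cell cannot be told apart, and the 2 tissues differ in their cells. Adipocyte markers (9 genes) summed to 36528 to 42907 FPKM in LA fat and 34520.2 to 39777 FPKM in PF fat, against 62.9 to 73.3 FPKM in LA liver and 59.4 to 71.7 FPKM in PF liver, where Adipoq, Plin, Lep and Retn were at 0. Preadipocyte and stromal markers (10 genes, 9 called higher in fat) summed to 2989 to 4161 FPKM in LA fat and 3107 to 3496 FPKM in PF fat, against 300.3 to 435 FPKM in LA liver and 538 to 620 FPKM in PF liver. Hepatocyte markers (11 genes) summed to 327 to 1240 FPKM in LA fat and 770.2 to 1412 FPKM in PF fat, against 35999 to 45742 FPKM in LA liver and 47099 to 58385 FPKM in PF liver, and 9 of them were called lower in fat, the other 2 being Alb and Tf, which liver lists at 0. Which of these cells carry the Hox transcripts was not tested.

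Genes whose spans overlap on the genome add a further limit, and the library kit does not mark strand. By RefSeq spans, Hoxa6 overlaps Hoxa3 and the long non-coding RNA gene Hoxaas3, Hoxb5 and Hoxb6 overlap the antisense RNA gene Hoxb5os, and Hoxc4 and Hoxc5 overlap Hoxc6. Hoxb3 and Hoxd4 overlap uncharacterised non-coding RNA genes. The spans include introns and were compared without regard to strand. Whether reads are shared within these pairs was not tested. Of today's Hox genes missing under their own symbol, Hoxa3 is listed under an older one, RGD1561431, with 1.22, 1.22, 1.94 and 1.38 FPKM in LA fat, and 1.33, 1.12, 1.25 and 1.21 FPKM in PF fat. Its liver values reached 0.106 FPKM under LA and 0.222 FPKM under PF. Its fat minus liver difference was 1.07 ± 0.07 in the filtered fit, which it entered through its fat libraries alone.

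The lists of related genes that follow are read against all genes of the same fit, of which 35.4% were called higher and 10.4% lower in fat, with a median difference of 0.66. A gene that passed the filter through fat alone had to be higher there, so the counts are descriptions. Of the 7 tested Hox cofactors, the TALE homeodomain proteins of the Pbx, Meis and Pknox families, 6 were called higher in fat and 0 lower, with a median difference of 1.52. In liver alone 5 of them passed the filter. The 3 Meis genes remained above the required size after centring on the median gene, and Pbx2 and Pbx3 fell under it. Meis1 measured 9.34 to 12.0 FPKM in LA fat and 10.4 to 14.3 FPKM in PF fat, against 1.18 to 1.85 FPKM in LA liver and 1.47 to 1.96 FPKM in PF liver (difference 2.25). Meis3 reached 4.13 to 5.71 FPKM in LA fat and 3.58 to 4.32 FPKM in PF fat, against 0.260 to 0.430 FPKM in LA liver and 0.188 to 0.433 FPKM in PF liver (difference 2.03). Meis2 differed by 1.85, Pbx3 by 1.52 and Pbx2 by 1.05. Pknox1 differed by 0.29 and was not called, and Pbx4 stayed at or below 0.0657 FPKM in every library.

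In liver, Pbx2 stood above the Hox transcripts. It measured 4.86 to 6.17 FPKM in LA liver and 5.47 to 6.82 FPKM in PF liver, above the whole Hox sum of any liver library, which was at most 1.22 FPKM.

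Regulators that keep Hox genes off or on were measured in both tissues. Polycomb genes, whose products silence Hox clusters, were called higher in fat in 5 of 15 (Cbx6, Cbx7, Ezh1, Phc1, Phc2) and lower in 0, with a median difference of 0.67, near the share and the median of all genes, and after centring in 3 (Cbx6, Cbx7, Ezh1). Cbx2 and Cbx8 were listed at 0 in all libraries. Trithorax genes and H3K27 demethylases, which act in the other direction, were called higher in 2 of 8 (Ash2l and Psip1) and lower in 0, with a median of 0.55, and after centring in 0. Of 9 genes of the Cdx and retinoic acid list, which set Hox expression in the embryo, 5 were higher in fat and 2 lower. Aldh1a2, which makes retinoic acid, measured 11.4 to 40.0 FPKM in LA fat and 7.64 to 31.0 FPKM in PF fat, against at most 0.304 FPKM in LA liver and 0.251 FPKM in PF liver. Aldh1a3, Rarg, Cyp26b1 and Gdf11 were also higher, and Aldh1a1 and Cyp26a1 lower. With centring, Cyp26b1 and Gdf11 fell under the required size. Cdx1 and Rarb, both in that list, were listed at 0 in all libraries.

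Other developmental factors known to mark fat depots or their mesenchyme gave 11 higher and 2 lower of 14 tested, with a median difference of 1.95. In liver alone 5 of the 14 passed the filter. Osr1, a factor of lateral and intermediate mesoderm, measured 11.1 to 18.8 FPKM in LA fat and 7.07 to 15.8 FPKM in PF fat, against 0 in LA liver and at most 0.0494 FPKM in PF liver. Wt1, a factor of visceral mesothelium, measured 7.87 to 15.5 FPKM in LA fat and 4.42 to 12.0 FPKM in PF fat, against at most 0.0818 FPKM in LA liver and 0.153 FPKM in PF liver. Prrx1, Twist1, Tcf21, Twist2, Nr2f1 and Tbx18 were also higher, as were Gata6, Shox2 and Emx2, which fell under the required size after centring. Nr2f2, at 0.34, was not called. Gata4 and Hand2 were lower in fat. Tbx15 and En1, known as markers of subcutaneous and dermal fat precursors in mice, were at most 0.0528 FPKM for Tbx15 and at 0 throughout for En1. Irx3, Irx5, Tbx5 and Osr2 were listed but did not pass the filter. Of 13 factors of liver, 0 were higher in fat and 12 lower, among them Foxa1, Foxa2, Foxa3, Hhex, Hnf4a, Lhx2, Nr5a2, Onecut1, Prox1 and Onecut2 (listed under its older symbol RGD1564677), with a median of -2.81.

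Genes that flank the clusters did not share one direction. Of 10 tested, 5 were higher in fat (Calcoco1, Hnrnpa1, Lnp, Skap2, Snx10) and 1 lower (Hibadh), with a median of 1.07, and Evx1 and Evx2, the homeobox genes at the ends of the Hoxa and Hoxd clusters, were listed at 0 in all libraries. Skap2, Snx10 and Calcoco1 kept their call after centring. The microRNA genes Mir196a, Mir196b and Mir615, which lie inside Hox clusters, were listed at 0 in all 16 libraries. For them too, a 0 says only that no value was given.

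The feed comparison asked whether LA altered these genes within a tissue. In fat, limma on log2(FPKM + 1) called 0 of the 10 tested members, and 0.0174% of 11501 genes. Of the 10, 0 had an unadjusted p under 0.05, against 3.92% of genes. The smallest unadjusted p in limma was 0.148 for Hoxa9, and the adjusted p was 0.9997 for each. Their differences, LA minus PF, were positive for 4 members (Hoxa2, Hoxa9, Hoxb4, Hoxb6) and negative for 6, and ran from -0.14 for Hoxc5 to 0.28 for Hoxa9. The 95% intervals of the 10 differences lay between -0.54 and 0.70, so changes beyond these bounds fall outside the intervals and smaller ones are not resolved by 4 libraries a group.

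Hoxc9, with the smallest spread, averaged 6.27 ± 0.549 FPKM in LA fat and 6.92 ± 0.396 FPKM in PF fat (SD, n = 4 each). Its log2(FPKM + 1) difference was -0.13, with a 95% interval of -0.33 to 0.08. Hoxb7 averaged 3.71 ± 0.50 FPKM in LA fat and 4.28 ± 1.43 FPKM in PF fat, and without PF fat replicate 4 its difference, -0.13, became 0.02. That library also stood apart in the epididymis markers, whose 13 genes summed to 11.3 FPKM there, with Lcn5, a gene of the epididymal duct, at 9.61 FPKM. In the other fat libraries the same sum was 1.30 to 2.40 FPKM under LA and 1.38 to 2.32 FPKM under PF, with Lcn5 at 0 in each of them. Testis markers stayed at or below 0.591 FPKM in LA fat and 0.711 FPKM in PF fat in sum. The part of these cells in the Hoxb7 and Hoxa9 values was not tested.

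Hoxd3 and Hoxb8, both under 1 FPKM, separated the feeds in fat without passing the test. Hoxd3 measured 0.273, 0.349, 0.265 and 0.238 FPKM in LA fat, and 0.190, 0.0510, 0.0519 and 0 FPKM in PF fat. Hoxb8 was seen in 1 LA fat library, at 0.0649 FPKM, and measured 0.325, 0.0872, 0.178 and 0.101 FPKM in PF fat. All LA fat libraries of Hoxd3 lay above all PF fat libraries, and those of Hoxb8 lay below. Of the 21 members with a value in fat, 1 was higher and 2 lower under LA without overlap, against 1.36% and 0.832% of 16955 genes.

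In the fit without a filter, Hoxd3 differed by 0.26 ± 0.06 in log2(FPKM + 1) (limma unadjusted p = 0.00160, adjusted p = 0.971). The same fit gave Hoxb8 a difference of -0.20 ± 0.06 (limma unadjusted p = 0.0109, adjusted p = 0.999). This scale understates the differences of low genes. Mean Hoxd3 was 0.281 FPKM in LA fat and 0.0731 FPKM in PF fat, and mean Hoxb8 was 0.0162 FPKM and 0.173 FPKM. No member passed, and 0.0118% of all genes did. Unadjusted p-values under 0.05 were held by 3 of the 21 members, among them Hoxd3 and Hoxb8, and by 4.01% of all genes. Among their cluster neighbours, Hoxd4 differed by -0.12 and Hoxb7 by -0.13, and 0 of these were called. Hoxb9, also next to Hoxb8, averaged 0.0755 FPKM in LA fat and 0.238 FPKM in PF fat, and its libraries overlapped between the feeds.

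Mesothelial markers (7 genes) varied between the same fat libraries, with sums of 158 to 484 FPKM in LA fat and 62.2 to 417 FPKM in PF fat, and their part in the low members was not tested. Of the cofactors, the Polycomb, Trithorax and retinoic acid genes, the cluster neighbours and the other factors of fat, 0 were called between the feeds in fat and 0 in liver.

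In liver, 0 members passed the filter. Without it, 9 members had a value and 0 were called, against 2.16% of 15621 genes, and with the filter 4.48% of 9710 genes were called. Of the 9, 0 had an unadjusted p under 0.05, against 15.5% of genes, and 0 separated the feeds without overlap, against 9.13%. In limma their differences were at most 0.07 in size, on the same scale as in fat, which understates the differences of low genes. This size therefore does not bound their relative change in FPKM.

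The difference of the feed effects between the tissues was tested as an interaction over 16 libraries. It was called for 0 of 10 members and 0.381% of 12079 genes. Without the filter, 3 of the 21 members, among them Hoxd3 and Hoxb8, had an unadjusted p under 0.05, against 7.85% of genes. The smallest was that of Hoxd3 (limma unadjusted p = 5.31e-04, adjusted p = 0.110). Of the 21 members 0 were called, against 0.127% of 17385 genes. Since Hoxd3 was at 0 throughout liver, this value repeats its difference in fat.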

How the data were processed

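Liver and epididymal fat RNA was sequenced from TruSeq V2 libraries, per the labels' protocols, which do not mark strand. CASAVA 1.8.2, TopHat and Cuffdiff were used, per the submitters' processing notes. The sources used here give neither the build nor the annotation. The authors deposited FPKM values, per the file headers, with 1 value per symbol and library and no counts, so a count test was not possible and depth is unknown. The Hox members, gene lists and tests were chosen with earlier results of these data known. All 28 symbols matching the pattern were analysed, whatever their values; of the lists, those called are named and, for cofactors and factors of fat, the measured members. A few genes are counted but not reported here by name.

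The test was limma 3.58.1 (R 4.3.3) on log2(FPKM + 1), its prior variance following mean expression; p-values were adjusted by Benjamini and Hochberg's method over every gene of a fit. A gene entered a fit when 4 or more of its libraries reached 1 FPKM. The call was an adjusted p under 0.05, between tissues also a difference over 1. Feeds were fitted within a tissue, and tissues and the interaction over 16 libraries with 4 group means. Fits across tissues treat libraries as independent although 8 rats gave 16 libraries. Other settings tried were array weights, leaving out each library, blocking on the replicate number, centring on the median gene, dropping the filter, a pseudocount of 0.1 and, for the feeds, a single fit of all 16 libraries; no filter together with the pseudocount of 0.1 was chosen after seeing the data. Within groups, log2 values correlated at 0.986 to 0.996 across genes, and no pair of libraries was identical. The fit was tested on simulated data. Promoters, spans and older symbols come from RefSeq (GRCr8); figures were drawn with matplotlib 3.10.9.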

Additional observations from a re-analysis of the deposited data

Results flagged for a closer look

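In 13 of 55 groups of 4 libraries with any spread, 1 library stood far from the others by Dixon's test, which chance alone flags in about 5% of groups. In 11 of the 13 the other 3 libraries were at 0, so a single detection was enough. In fat these were Hoxa9l at 0.173 FPKM and Hoxb8 at 0.0649 FPKM in LA replicate 2, Hoxc10 at 0.104 FPKM and Hoxd13 at 0.0298 FPKM in LA replicate 1, and Hoxd1 at 0.0399 FPKM in LA replicate 4. In PF fat they were Hoxc10 at 0.0771 FPKM in replicate 1, Hoxd10 at 0.0358 FPKM in replicate 2 and Hoxd1 at 0.0476 FPKM in replicate 4. In PF liver they were Hoxc9 at 0.0236 FPKM in replicate 1, Hoxc4 at 0.0413 FPKM in replicate 2 and Hoxb7 at 0.0611 FPKM in replicate 3.

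The other 2 had values in all libraries. Hoxc5 reached 2.11 FPKM in LA fat replicate 3, against 1.28 to 1.40 FPKM in the other 3. Hoxb5 was 0.124 FPKM in PF fat replicate 1, against 0.401 to 0.408 FPKM in the other 3, and that library also had the lowest sum of mesothelial markers in fat, 62.2 FPKM. The part of those cells in the Hoxb5 value was not tested.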

How the results depend on the processing

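Median centring cut the members called higher in fat to 4 over both feeds, 4 under LA and 3 under PF. It called 2235, 2274 and 2243 of 12079 genes higher in the same comparisons. The added fit with no filter and a pseudocount of 0.1 gave 14, 12 and 15 of 21 members. The same fit called 6355, 6307 and 6409 of 17385 genes. Array weights gave 8, 7 and 8 members, and 4294, 4287 and 4349 genes. A pseudocount of 0.1 gave 10 members in each, and 5112, 5098 and 5180 genes. Leaving out a library gave 8 to 9 members in each of these comparisons, and 4251 to 4301 genes over both feeds. Apart from the added fit, the members counted entered through their fat libraries, so these counts are descriptions. Members at 1 FPKM or more in every fat library numbered 6, and 10 to 11 had a mean of 1 FPKM or more when a library was left out; with a mean of 0.1 FPKM or more, 4 counted as expressed in liver. The counts of members called between the feeds and for the interaction were 0 under every alternative run.

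Of the feed differences in fat, those near zero changed sign. With array weights Hoxa2 became -0.0225, Hoxb3 0.0127 and Hoxb4 -0.024, and with centring Hoxb4 became -0.0071. Over the libraries left out in turn, Hoxa2 ran from -0.0304 to 0.0868, Hoxb3 from -0.167 to 0.0588, Hoxb4 from -0.04 to 0.0818 and Hoxb7 from -0.269 to 0.0242. The cause was not tested.

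The replicate block left 9 members called over both feeds, 9 under LA, 9 under PF and 0 between the feeds or for the interaction. Between the tissues it called 4279, 4297 and 4325 of 12079 genes higher in fat, in the same order. Equal replicate numbers correlated at -0.426 to -0.057 between the feeds in fat and at -0.003 to 0.152 between the feeds in liver. Between fat and liver they correlated at -0.225 to 0.111 under LA and at -0.033 to 0.291 under PF. Unequal numbers correlated at -0.663 to 0.631, -0.211 to 0.1, -0.23 to 0.282 and -0.235 to 0.108, in the same order. The means of equal against unequal numbers were -0.277 against 0.092, 0.061 against -0.02, -0.039 against 0.014 and 0.112 against -0.037. The ranges overlapped in each of the 4 pairings, so equal numbers were not shown to mark related libraries.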
